A study of Rattus norvegicus with 20 samples.

Results

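The genes of the proteasome were followed through the dorsal root ganglia (DRG) of rats fed soybean oil or fish oil, after chronic constriction injury (CCI) of the sciatic nerve or sham surgery. The genes were chosen by name. Every protein-coding gene whose symbol is Psm, a letter from a to f and a number was taken, which gave 45 genes of 39747 in the count table. Of these, 43 had enough counts to be tested in every comparison. Psma8, a testis form of an alpha subunit, was listed at 0 in 17 of the 20 libraries and reached at most 0.425 FPKM. FPKM are the fragments counted per length of the transcript and size of the library, as scaled in the deposited values. Psmb11, the thymus form of a beta subunit, was listed at 0 in 11 libraries and reached at most 0.332 FPKM. Psmc3ip was taken by the letters of its symbol only, since it encodes a recombination factor that binds the ATPase subunit Psmc3, and it is described apart from the subunits.

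The rats were female Sprague-Dawley animals, labelled wild type, that ate either a control diet based on AIN-93G with soybean oil (SOD) or a modified diet with fish oil as the source of omega-3 fatty acids (FOD) for 4 weeks before surgery. CCI rats received loose chromic gut ligatures on the left sciatic nerve, sham rats (CT) had the nerve exposed without ligatures, and DRG were taken 1 week after surgery. Bulk libraries were made of left DRG from SOD-CT (n = 4), SOD-CCI (n = 3), FOD-CT (n = 3) and FOD-CCI (n = 4) rats, and of the contralateral, uninjured-side DRG of 3 SOD-CCI and 3 FOD-CCI rats. A planned SOD-CCI sample and a planned FOD-CT sample were not sequenced, since they fell short in RNA amount and integrity, and the fourth FOD-CCI rat has no contralateral library. All rats were female and had surgery, and no group was left unoperated. The spinal segments of the ganglia are not given in the sources used here.

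The proteasome is the protease that degrades proteins tagged with ubiquitin. Its 20S core stacks rings of alpha subunits, which gate the entrance, around rings of beta subunits, of which Psmb5, Psmb6 and Psmb7 carry the active sites. The 19S cap unfolds substrates with a ring of ATPases, the Psmc genes, and receives and de-ubiquitinates them with the Psmd subunits of its base and lid. Interferon signalling and immune cells replace the active subunits Psmb5, Psmb6 and Psmb7 with Psmb8, Psmb9 and Psmb10, which makes the immunoproteasome and favours peptides for antigen presentation, and the Psme1 and Psme2 activator opens the core in the same setting. In neurons the proteasome clears damaged proteins along axons and takes part in the turnover of synaptic and receptor proteins.

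Promoters are shown for the immunoproteasome and activator genes that hold an interferon-type motif, and for the constitutive active subunits that hold an antioxidant-type motif, since the ratios between these subunits are compared below. The RefSeq promoter table (rat assembly GRCr8, 250 bases before to 50 after each start) held 40 of the 45 genes. The core of the interferon stimulated response element, 2 copies of GAAA separated by any 2 bases, was searched on both strands and was found in 6 of the 40 promoters (15%) and in 3.92% of all 33469 promoters. Those of Psma4, Psmb3, Psmb8, Psmb10, Psmd7 and Psme2 held it. The motif TGACNNNGC, the core of the antioxidant response element bound by Nfe2l1 and Nfe2l2, was in 8 of 40 (20% against 12.1% of all), those of Psma3, Psmb2, Psmb5, Psmb6, Psmd1, Psmd3, Psmd9 and Psme4. The letters CCAAT were in 21 of 40 (52.5% against 37.5%). A match is a description of the letters and not a bound site. The sequences are 120 bases long, on the strand of the gene, with the matched letters in capitals.
Psmb8, chr20:4657022-4657141 (- strand): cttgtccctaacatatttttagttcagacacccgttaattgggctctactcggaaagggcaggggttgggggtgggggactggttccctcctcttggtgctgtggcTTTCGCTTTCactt
Psmb10, chr19:50743283-50743402 (- strand): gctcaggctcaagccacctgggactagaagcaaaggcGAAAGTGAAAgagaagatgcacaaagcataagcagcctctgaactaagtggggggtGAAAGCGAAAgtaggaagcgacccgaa
Psme2, chr15:33052742-33052861 (- strand): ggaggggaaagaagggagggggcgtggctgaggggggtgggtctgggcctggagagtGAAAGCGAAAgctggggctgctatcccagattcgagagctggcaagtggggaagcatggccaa
Psmb5, chr15:32047376-32047495 (- strand): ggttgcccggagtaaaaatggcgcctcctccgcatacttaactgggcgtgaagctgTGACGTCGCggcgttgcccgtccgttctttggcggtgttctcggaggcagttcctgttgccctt
Psmb6, chr10:55737778-55737897 (+ strand): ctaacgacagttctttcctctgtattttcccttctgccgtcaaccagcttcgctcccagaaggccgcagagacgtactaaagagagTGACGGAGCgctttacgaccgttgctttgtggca
The Psmb8 match lies on the opposite strand and begins 4 bases before the start. Psmb10 holds 2 matches, the farther of which begins 73 bases before the start, and in Psme2 the match begins 53 bases before it. The antioxidant-type match begins 60 bases before the start in Psmb5 and 24 in Psmb6.

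The core subunits were among the more abundant transcripts of the set, and the immunoproteasome subunits were far lower. As medians over the 20 libraries, the levels per length of the 7 alpha genes ran from 91.8 FPKM (Psma5) to 283 FPKM (Psma2), and those of the 7 beta genes from 91.7 FPKM (Psmb2) to 612 FPKM (Psmb4). The subunits of a ring are present in equal number in the complex, yet their transcript levels spanned 3.09-fold in the alpha ring and 6.67-fold in the beta ring. Of the immunoproteasome genes, Psmb8 (9.93 FPKM) and Psmb9 (10.1 FPKM) had nearly the same median, and Psmb10 was higher at 41.7 FPKM. The active subunits that they replace had medians of 231 FPKM for Psmb5, 322 FPKM for Psmb6 and 271 FPKM for Psmb7.

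In the 19S cap, the 6 ATPase genes ran from 69.5 FPKM (Psmc4) to 206 FPKM (Psmc5), the 3 non-ATPase base genes from 67.3 FPKM (Psmd1) to 112 FPKM (Psmd4) and the 8 lid genes from 29.9 FPKM (Psmd11) to 185 FPKM (Psmd6). The 3 assembly chaperones of the cap, Psmd5, Psmd9 and Psmd10, lay between 30.5 and 51.9 FPKM. The 4 activator genes ran from 18.3 FPKM (Psme4) to 46.9 FPKM (Psme1), and Psmf1, an inhibitor of the core, was at 48.5 FPKM. Psmc3ip was at 3.23 FPKM, the lowest of the tested genes. The plot of levels by role shows every library.

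**Figure D1:**
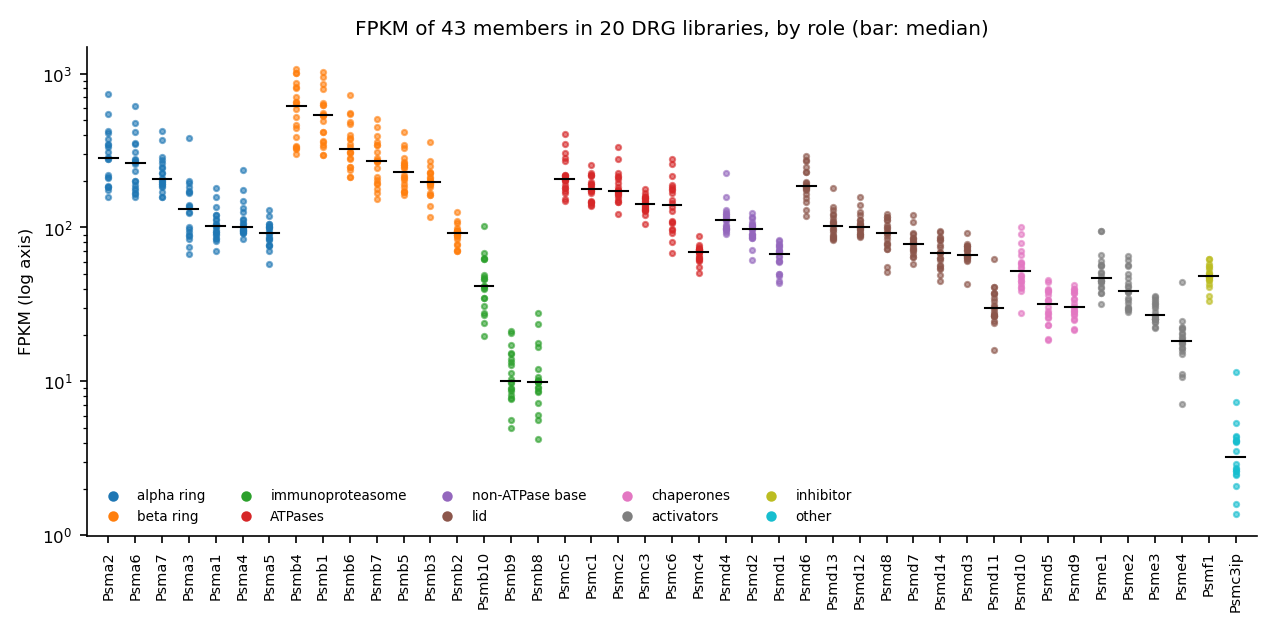
FPKM of the 43 tested genes on a log axis, 1 point for each of the 20 libraries, coloured by role, with a bar at the median. Psmb4 is highest with a median of 612 FPKM, and the immunoproteasome genes Psmb8 and Psmb9 lie near 9.93 FPKM, below every alpha and beta ring gene.

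By their medians, proteasome genes varied less within groups than all tested genes, and the sets were not matched for abundance. CPM are counts per size of the library after scaling. On the log2 CPM scale the within-group SD of the proteasome genes had a median of 0.35, against 0.52 over the 14435 genes tested in all 20 libraries. The steadiest were Psmc4 (0.18), Psmc3 (0.19), Psmd3 (0.20), Psme3 (0.20) and Psmb2 (0.21). The widest were Psmc3ip (0.71), Psmb8 (0.59), Psma3 (0.56), Psmb4 (0.56), Psmb9 (0.54), Psmb1 (0.53) and Psma2 (0.53).

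The 31 core and cap genes tended to lie high or low together in a library. As the median deviation of these genes from their own mean over all libraries, in log2 CPM, the values were 0.71, 0.079, -0.24 and 0.22 in SOD-CT, -0.019, -0.28 and -0.21 in SOD-CCI, -0.46, 0.16 and -0.0020 in FOD-CT and -0.068, 0.13, 0.073 and 0.036 in FOD-CCI. In contralateral DRG they were 0.44, -0.19 and -0.24 in SOD-CCI rats and -0.39, 0.13 and 0.33 in FOD-CCI rats. The highest value was that of SOD-CT replicate 1, in which 30 of the 31 genes lay above their mean, and the lowest that of FOD-CT replicate 1, with 2 of 31. The scaling factor in the CPM was 0.6509 in SOD-CT replicate 1 and 0.941 to 1.13 in the other libraries. A lower factor raises every gene of a library, and its part in the 0.71 was not tested. With group means removed, the log2 CPM of genes outside the set was correlated with the mean of the 31 genes over the 20 libraries. The closest were Cops5 (r = 0.962), Cystm1 (r = 0.949), Prdx5 (r = 0.949), Chmp3 (r = 0.948) and Cct5 (r = 0.947), where all points share library depth and scaling.

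**Figure D2:**
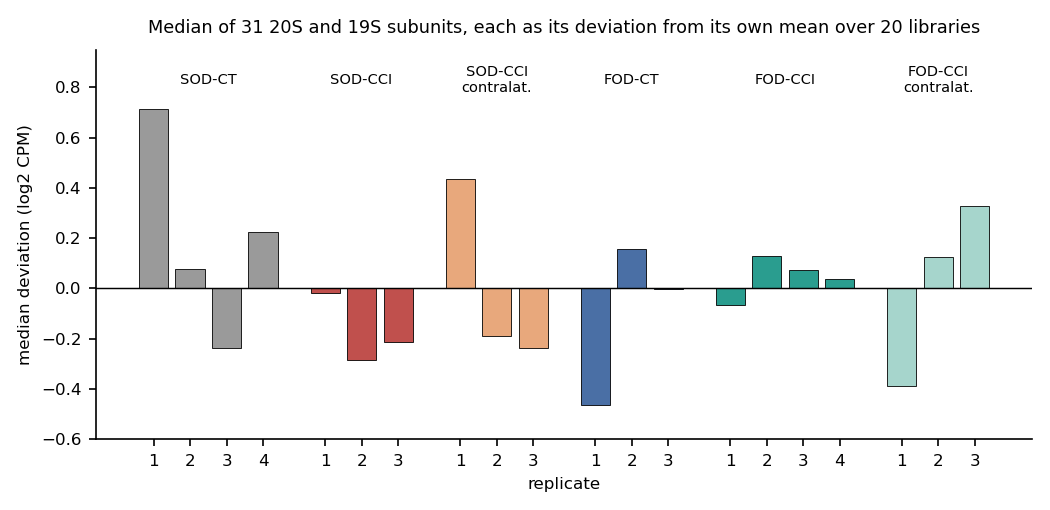
Bars give, for each library, the median over 31 core and cap genes of the deviation of log2 CPM from each gene's own mean over 20 libraries, with replicate numbers below and groups above. SOD-CT replicate 1 stands highest at 0.71 and FOD-CT replicate 1 lowest at -0.46, so that replicates of the same group differ by as much as the groups do. The scaling factor of SOD-CT replicate 1, 0.6509, was the lowest and raises all its genes.

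Library totals ran from 22547190 to 54437581 counts. The divisor behind the deposited FPKM was 14312100 in SOD-CT replicate 1, whose counts totalled 22792829, and 23781000 to 55253000 in the other 19. A lower divisor raises every FPKM of a library. All 6 neuronal and all 5 Schwann cell markers were detected in every library, and the neuronal markers summed to 2866 CPM in contralateral FOD-CCI replicate 1 and to 8260 to 20452 CPM in the other 19. The 7 skeletal muscle markers summed to 135570 CPM in SOD-CT replicate 1 and to at most 18469 CPM elsewhere. The 6 spinal cord glia markers summed to 2476, 2040 and 3218 CPM in replicate 1 of FOD-CT, FOD-CCI and contralateral FOD-CCI, and to at most 103 CPM elsewhere. The proteasome genes are short, with a median length of 1343 bases against 2357 over the genes tested, and fold changes followed gene length across all genes, with a Spearman correlation of 0.231 for the SOD injury comparison and -0.351 for the interaction. Values without these libraries or with gene length offsets are given below where they moved a count or a direction. In whole DRG, fewer cells of a type and less RNA per cell cannot be told apart.

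The first comparison asked how CCI changed the left DRG under the soybean oil diet. Transcripts of the core rings were lower in SOD-CCI than in SOD-CT, but none of the 43 genes was called at the adjusted p of 0.1 and fold of 1.2 used for all calls here. By edgeR's quasi-likelihood test 0 of 14484 genes were called (0%). At an unadjusted p under 0.05, 11 of the 43 proteasome genes were lower (8.8% of all genes were) and 0 were higher (5.05% of all genes were). The median log2 fold change (log2FC) over the 43 was -0.30, with 13 above 0 and 30 below, against a median of -0.0090 over all genes. All 7 alpha ring genes lay below 0 (median -0.62) as did 6 of the 7 beta ring genes (median -0.70), while the ATPases (-0.26), the lid (-0.25) and the 3 non-ATPase base genes (0.21) were nearer to 0.

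Psma2 (gene ID 29669), an alpha ring subunit, had the smallest p. Its FPKM were 741, 342, 278 and 544 in SOD-CT, 214, 184 and 210.4 in SOD-CCI, 176, 377 and 335 in FOD-CT and 219.9, 424, 277 and 289 in FOD-CCI. Every SOD-CCI value lay below every SOD-CT value, with means of 203 ± 16.3 (SD, n = 3) and 476 ± 209.7 (SD, n = 4). The log2FC was -1.19 (SE 0.35) with an adjusted p of 0.266, and -0.93 (adjusted p = 0.533) without SOD-CT replicate 1, while over all alternatives the adjusted p ran from 0.041 to 0.647. In contralateral DRG the FPKM of Psma2 were 308, 182 and 186 in SOD-CCI rats and 158, 347 and 412 in FOD-CCI rats. SOD replicate 1 was the highest of its group and FOD replicate 1 the lowest.

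Psmb4 (gene ID 58854), a beta ring subunit without an active site and the most abundant gene of the set, had FPKM of 1016, 635, 462 and 864 in SOD-CT, 446, 333 and 386 in SOD-CCI, 323, 652 and 589 in FOD-CT and 521, 1012, 699.5 and 803 in FOD-CCI. The SOD-CCI values again lay below all 4 SOD-CT values, and below all 4 FOD-CCI values. Its SOD injury log2FC was -0.90 (SE 0.32), with an adjusted p of 0.294. Without SOD-CT replicate 1 it was -0.75 (adjusted p = 0.582, and 0.0893 to 0.647 over all alternatives). Contralateral FPKM were 654, 337 and 302 in SOD-CCI rats and 328, 824 and 1067 in FOD-CCI rats. The order of the replicates was the same as for Psma2, except that SOD replicates 2 and 3 changed places.

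Psmb6 (gene ID 29666), the subunit with the caspase-like active site, had FPKM of 722, 483, 334 and 546 in SOD-CT, 309, 246 and 284 in SOD-CCI, 214, 401 and 279.5 in FOD-CT and 306, 380.5, 309.7 and 350.4 in FOD-CCI. All 3 SOD-CCI values lay below the 4 SOD-CT values, and the FOD groups overlapped. Its log2FC was -0.86 (SE 0.26), with an adjusted p of 0.266 and a value of -0.70 without SOD-CT replicate 1. In contralateral DRG the FPKM of Psmb6 were 555, 248 and 237 in SOD-CCI rats and 213, 377 and 472 in FOD-CCI rats. Replicate 1 was the highest of the SOD and the lowest of the FOD contralateral libraries.

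Psmb1 (gene ID 94198), a beta ring subunit without an active site, had FPKM of 951, 539.9, 416 and 623 in SOD-CT, 416, 333 and 361 in SOD-CCI, 297, 540.2 and 533 in FOD-CT and 494, 859, 554 and 628 in FOD-CCI. The highest SOD-CCI value, 415.6, lay just under the lowest SOD-CT value, 416.2. Its log2FC was -0.74 (SE 0.30), adjusted p = 0.324. Contralateral FPKM were 646, 364 and 344 in SOD-CCI rats and 297, 789.7 and 1021 in FOD-CCI rats, and as for Psmb6 the extreme libraries were SOD replicate 1 and FOD replicates 1 and 3.

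Psmb7 (gene ID 85492), the subunit with the trypsin-like active site, had FPKM of 507, 269, 212 and 357 in SOD-CT, 242, 167 and 195 in SOD-CCI, 154, 310.4 and 284 in FOD-CT and 268, 342, 272 and 274 in FOD-CCI. SOD-CCI and SOD-CT overlapped, and FOD-CCI replicate 2 was the highest of its group. The SOD injury log2FC was -0.70 (SE 0.30), adjusted p = 0.331. In contralateral DRG the FPKM of Psmb7 were 395, 205 and 191 in SOD-CCI rats and 178, 344 and 453 in FOD-CCI rats, highest in SOD replicate 1 and FOD replicate 3.

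Psmb5 (gene ID 29425), the subunit with the chymotrypsin-like active site, had FPKM of 418, 203, 192 and 218 in SOD-CT, 213, 163 and 169 in SOD-CCI, 170.1, 255 and 209 in FOD-CT and 282, 246, 244 and 254 in FOD-CCI. SOD-CT replicate 1 was far above the other SOD-CT libraries, which overlapped with SOD-CCI. The contralateral FPKM of Psmb5 were 330.2, 184 and 172 in SOD-CCI rats and 264, 268 and 345 in FOD-CCI rats, with the same libraries highest. Its SOD injury log2FC was -0.47 (SE 0.26), adjusted p = 0.4204, and -0.17 without SOD-CT replicate 1.

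Psmc2 (gene ID 25581), an ATPase of the 19S base, had FPKM of 331, 212, 182 and 227 in SOD-CT, 172, 158 and 146 in SOD-CCI, 146, 207 and 195 in FOD-CT and 176, 163, 169.7 and 174 in FOD-CCI. The 3 SOD-CCI values lay below the 4 SOD-CT values, and FOD-CT and FOD-CCI overlapped. The SOD injury log2FC was -0.55 (SE 0.21), with an adjusted p of 0.306. In contralateral DRG the FPKM of Psmc2 were 279, 152 and 167 in SOD-CCI rats and 123, 166 and 217 in FOD-CCI rats, and the groups overlapped.

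The count of lower genes changed with the libraries in the fit. Without SOD-CT replicate 1, in which muscle transcripts were high, 7 of 43 were lower at p under 0.05 (4.31% of all genes). The median over the 43 was then -0.12. Without SOD-CCI replicate 2 or 3 the count was 5 or 7. Where a count at p under 0.05 from a changed fit has no share of all genes beside it, here or below, none was computed. Such a count cannot be set against all genes. Without the FOD replicate 1 libraries, which hold spinal cord transcripts, 10 of 43 were lower (9.36% of all genes). With gene length offsets the median was -0.17. The DESeq2 Wald test called 5 proteasome genes lower (4.17% of all genes were called): Psma2 (log2FC -1.23, adjusted p = 0.04095), Psmb6 (-0.90, 0.05003), Psma3 (-1.18, 0.0705), Psmc6 (-1.01, 0.0742) and Psmb4 (-0.94, 0.0893). The ranges of the adjusted p over all alternatives were 0.05 to 0.647 for Psmb6, 0.0705 to 0.647 for Psma3 and 0.0742 to 0.647 for Psmc6. Without SOD-CT replicate 1, DESeq2 called 0 of the 43, and the share of all genes called was also lower, at 0.805%.

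**Figure D3:**
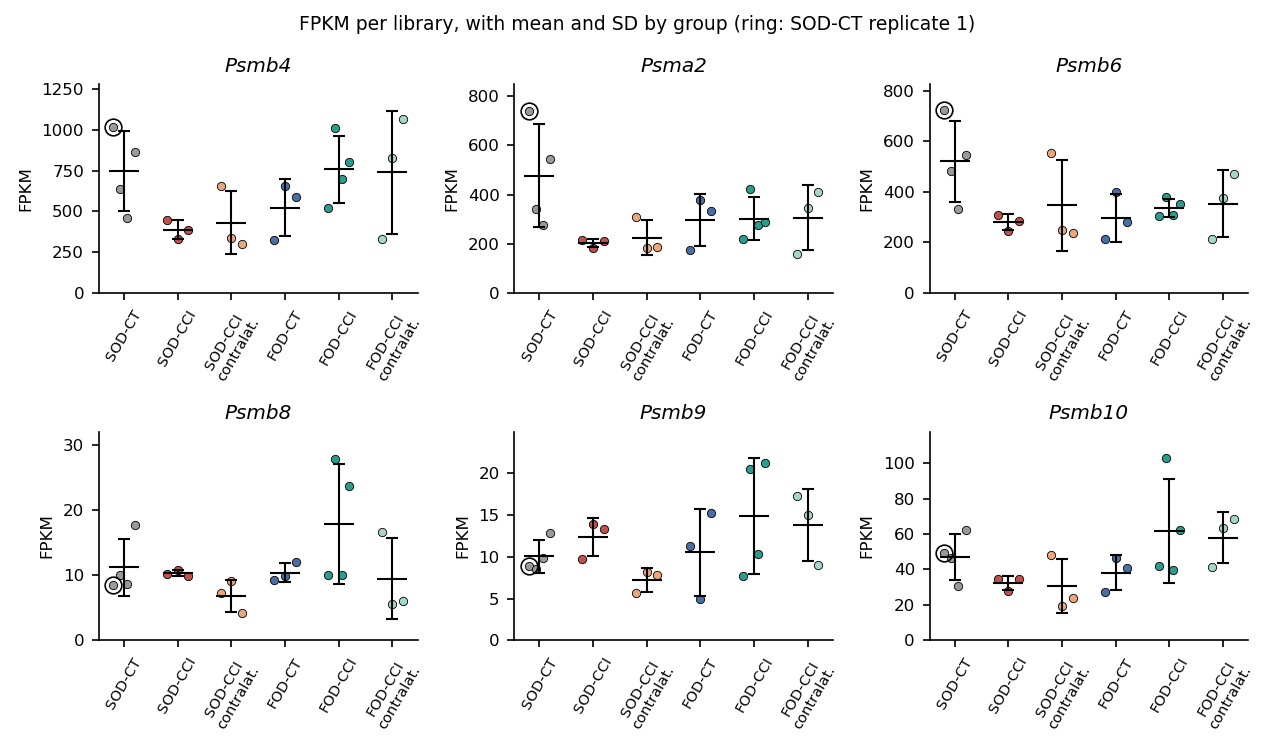
FPKM of 3 core genes (upper row) and the 3 immunoproteasome genes (lower row) in every library by group, with bars at the mean and SD and a ring around SOD-CT replicate 1. The SOD-CCI values of Psmb4, Psma2 and Psmb6 lie below all 4 SOD-CT values, and the FOD-CCI values of Psmb8, Psmb9 and Psmb10 spread more widely than those of SOD-CCI.

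Under the fish oil diet most proteasome transcripts lay slightly higher after the same injury. In FOD-CCI against FOD-CT, 36 of 43 genes had a log2FC above 0 and the median was 0.13, against 0.0065 over all genes. None was called, as for all genes (0%), and 0 of 43 were higher at an unadjusted p under 0.05 (3.2% of all genes were). The majority was smaller, 25 of 43, without the replicate 1 libraries of FOD-CT and FOD-CCI, and 23 of 43 (median 0.0044) without FOD-CT replicate 1 alone. Without FOD-CCI replicate 1 alone 5 of 43 were higher at p under 0.05 (5.72% of all genes), and without FOD-CT replicate 2 there were 3, with a median of 0.23. Psmb4 had a log2FC of 0.54 (SE 0.32), with FPKM of 759 ± 205 (SD, n = 4) in FOD-CCI and 522 ± 175 (SD, n = 3) in FOD-CT. Psmb8, an immunoproteasome subunit, had the largest of the 43 (0.78, SE 0.40, adjusted p = 0.9997).

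With injury averaged over both diets, 18 of 43 genes lay above 0 (median -0.080), and 3 were lower at p under 0.05 (5.57% of all genes were), with 0 of 43 called (0% of all genes). The 3 became 0 when SOD-CT replicate 1 or 4, SOD-CCI replicate 2 or FOD-CCI replicate 1 was left out, and 7 when SOD-CT replicate 3 was. At the same p, 4.54% of all genes were lower without SOD-CT replicate 1 and 7.63% without FOD-CCI replicate 1. Psma2 had an averaged log2FC of -0.58 (SE 0.24), adjusted p = 0.378. Psmc2 was at -0.32 (SE 0.15), adjusted p = 0.414. Psmc3ip (gene ID 140938), the recombination factor, was at -0.65 (SE 0.29), adjusted p = 0.405. Its FPKM were low, at 5.398, 2.69, 4.102 and 4.09 in SOD-CT, 2.604, 2.604 and 2.099 in SOD-CCI, 7.37, 4.34 and 4.03 in FOD-CT and 2.91, 4.14, 4.41 and 2.497 in FOD-CCI. The contralateral FPKM of Psmc3ip were 3.54, 2.75 and 2.48 in SOD-CCI rats and 11.4, 1.38 and 1.603 in FOD-CCI rats. The highest values were those of FOD replicate 1, in sham and in contralateral DRG, 2 of the 3 libraries with spinal cord transcripts.

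The diets were then compared within each surgery. After CCI, the log2FC of FOD-CCI against SOD-CCI lay above 0 for 6 of the 7 beta ring genes, all but Psmb3 (-0.018, SE 0.21), and for all 3 immunoproteasome genes, of which Psmb8 and Psmb9 overlapped between the groups, and 0 of 43 genes were called (0% of all genes). The median log2FC over the 43 was 0.16 with 36 above 0, against 0.043 over all genes, and 4 were higher at p under 0.05 (3.87% of all genes were), Psmb4, Psmb10, Psmb1 and the alpha ring gene Psma6 (log2FC 0.80, SE 0.36). By role the medians were 0.79 for the 3 immunoproteasome genes, 0.50 for the beta ring, 0.21 for the ATPases, 0.12 for the lid and 0.095 for the alpha ring, and all 7 alpha genes and 6 ATPases lay above 0. The 3 non-ATPase base genes went the other way in the fit without SOD-CT replicate 1. Their median there was -0.087, with 2 below 0 and 1 above. With gene length offsets the median over the 43 was 0.046.

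Psmb4 differed most, with a log2FC of 0.96 (SE 0.32) and an adjusted p of 0.859, and all 4 FOD-CCI libraries lay above all 3 SOD-CCI libraries. Its means were 759 ± 205 FPKM in FOD-CCI and 388 ± 56.1 FPKM in SOD-CCI. Psmb1 had a log2FC of 0.77 (SE 0.30) with means of 634 ± 160.2 and 369.9 ± 41.9 FPKM, again without overlap between the groups. Psmb10 (gene ID 291983), the immunoproteasome subunit that takes the place of Psmb7, had FPKM of 49.2, 46.2, 30.8 and 62.3 in SOD-CT, 34.6, 27.8 and 34.6 in SOD-CCI, 27.1, 46.5 and 40.5 in FOD-CT and 41.8, 103, 39.7 and 62.5 in FOD-CCI. All 4 FOD-CCI values lay above the 3 SOD-CCI values, with FOD-CCI replicate 2 highest. The log2FC of Psmb10 was 0.93 (SE 0.34), with the same adjusted p of 0.859. Its contralateral FPKM were 47.9, 19.6 and 23.96 in SOD-CCI rats and 41.5, 63.5 and 68.7 in FOD-CCI rats, and the groups overlapped through SOD replicate 1. The 7 macrophage markers also lay above 0 in this comparison (median log2FC 0.70), with summed levels of 163 to 241 CPM in SOD-CCI and 145 to 549.5 CPM in FOD-CCI, and their part in the Psmb10 values was not tested.

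SOD-CT replicate 1 entered this comparison only through the filter, the scaling and the shared estimate of the spread. Without it, 7 of 43 genes were higher at p under 0.05 (6.62% of all genes). The count was 1 when either SOD-CCI replicate 2 or FOD-CCI replicate 2 was left out and 2 when SOD-CCI replicate 3 was. No share of all genes was computed for these 3 fits. DESeq2 without SOD-CT replicate 1 called 1 of the 43 (1.17% of all genes were called), Psmb4, with a log2FC of 0.97 and an adjusted p of 0.098, in a range of 0.098 to 0.999 over all alternatives. Without the left FOD replicate 1 libraries, 8 of 43 were higher at p under 0.05 (4.32% of all genes).

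After sham surgery most log2FC lay on the other side of 0. In FOD-CT against SOD-CT, 36 of 43 genes lay below 0, with a median of -0.27 against -0.013 over all genes, and -0.14 without SOD-CT replicate 1. With SOD-CT replicate 1 and the left FOD replicate 1 libraries all left out, 26 of 43 lay above 0. None was called (0% of all genes), and 1 was lower at p under 0.05 (1.62% of all genes were), Psmb6 (-0.77, SE 0.26, adjusted p = 0.965). This count was 0 without FOD-CT replicate 1, 5 without FOD-CT replicate 2 and 6 without SOD-CT replicate 3. The means of Psmb6 were 298 ± 95 FPKM in FOD-CT and 521 ± 161 FPKM in SOD-CT, with overlap.

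Averaged over both surgeries the diet difference was close to 0, with a median of 0.017 and 24 of 43 above 0. None was called (0% of all genes) and 1 was lower at p under 0.05 (1.42% of all genes were). That gene was Psme4 (gene ID 498433), which encodes the PA200 activator of the core, with an averaged log2FC of -0.51 (SE 0.23) and an adjusted p of 0.987. Its FPKM were 44.5, 19.3, 16.4 and 24.6 in SOD-CT, 22.1, 20.4 and 20.5 in SOD-CCI, 10.7, 22.5 and 18.5 in FOD-CT and 11.1, 15.8, 18.1 and 16.4 in FOD-CCI. SOD-CT replicate 1 was highest and the FOD and SOD sham groups overlapped, while all 4 FOD-CCI values lay below the 3 SOD-CCI values. Without SOD-CT replicate 1 the averaged log2FC of Psme4 was -0.33. In contralateral DRG its FPKM were 21.8, 17.5 and 19.01 in SOD-CCI rats and 7.17, 15.1 and 17.7 in FOD-CCI rats, lowest in FOD replicate 1.

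The difference between the injury responses of the diets was tested as an interaction, which is the FOD injury log2FC minus the SOD injury log2FC. It was above 0 for 38 of 43 genes, with a median of 0.41 against 0.022 over all genes. None was called by edgeR (0% of all genes), and 9 were higher at an unadjusted p under 0.05 (4.32% of all genes were). All 7 beta ring genes (median 0.91), all 7 alpha ring genes (0.55) and all 3 immunoproteasome genes (0.88) lay above 0, as did 5 of 6 ATPases (0.43), 7 of 8 lid genes (0.33) and 1 of 3 non-ATPase base genes (-0.072).

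Psmb4 had the largest interaction of the 43, 1.44 (SE 0.45), with an adjusted p of 0.894. It was followed by Psma6 (1.29, SE 0.51), Psma2 (1.22, SE 0.48), Psmb1 (1.204, SE 0.42) and Psmb10 (1.201, SE 0.47), each with the same adjusted p. For Psmb6 the interaction was 1.03 (SE 0.37). Without SOD-CT replicate 1, 6 of 43 were higher at p under 0.05 (3.12% of all genes), the median was 0.28, and the interaction of Psmb4 was 1.28 (adjusted p = 0.995). Without the left FOD replicate 1 libraries 7 of 43 were higher (4.09% of all genes, median over the 43 0.31), and with gene length offsets 5 were (median 0.26). With SOD-CCI replicate 2, FOD-CT replicate 1 or FOD-CCI replicate 2 left out the count was 3. DESeq2 called 1 of the 43 (0.295% of all genes), Psmb4, at 1.48 with an adjusted p of 0.0594, in a range of 0.0594 to 0.996 over all alternatives. In the other 12 comparisons with all libraries DESeq2 called 0 of the 43, where 0% to 5.43% of all genes were called. The higher shares were 5.43% for side averaged over diets, 3.34% for averaged injury and 3.24% for the sides of SOD-CCI rats. The SOD injury and interaction comparisons share the SOD-CT and SOD-CCI libraries.

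**Figure D4:**
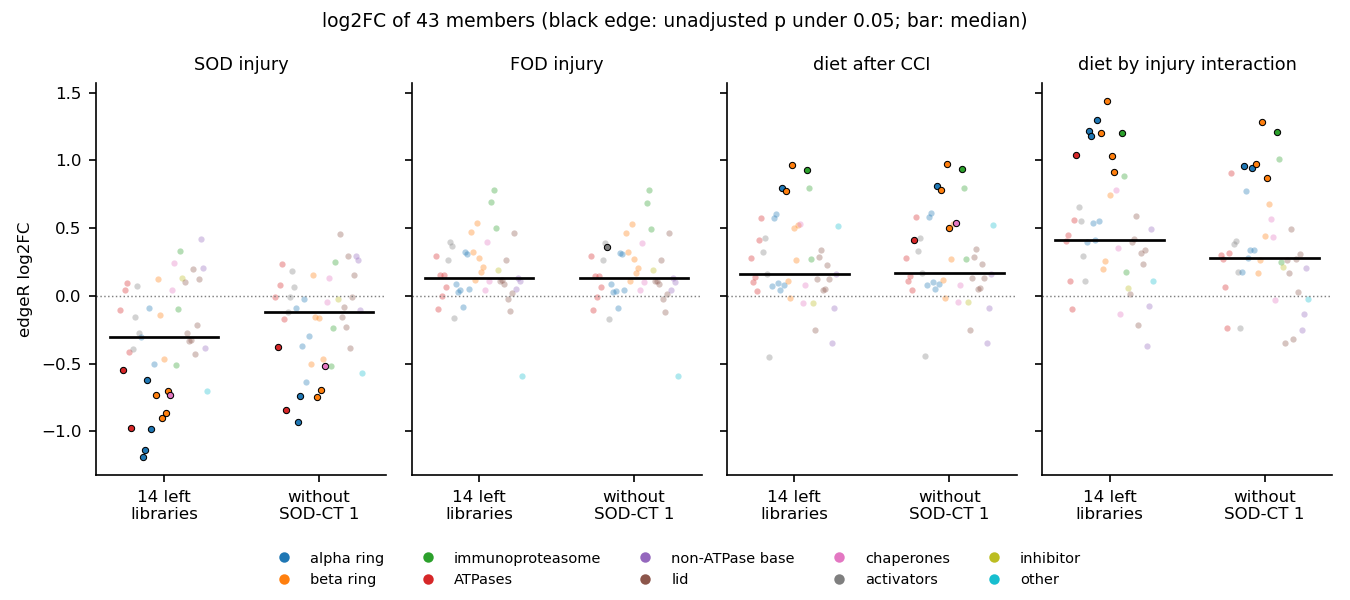
log2FC of the 43 genes in 4 comparisons, with all 14 left libraries and without SOD-CT replicate 1, coloured by role, with a black edge where the unadjusted p is under 0.05 and a bar at the median. The median of the SOD injury comparison moves from -0.30 to -0.12 without that library, and that of the interaction from 0.41 to 0.28.

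The injured side was compared with the contralateral side within the 6 CCI rats that had both, so that each rat served as its own control. Core and cap transcripts differed little between the sides. In SOD-CCI rats the median log2FC over the 43 genes was -0.10 and in FOD-CCI rats 0.038, and 0 of 43 were called in either, while 0.131% and 0.0137% of all genes were. At p under 0.05, 1 was lower in SOD-CCI rats (3.14% of all genes), Psmc5 (-0.52, SE 0.21), and 1 was higher in FOD-CCI rats (4.3% of all genes), Psmd11 (0.44, SE 0.19). Averaged over diets, 17 of 43 lay above 0 with a median of -0.045, and 0 were called (0.962% of all genes). At the same p, 2 were higher (7.49% of all genes) and 1 was lower (4.1% of all genes). When single rats were left out the median ran from -0.23 to 0.014 in SOD-CCI and from -0.11 to 0.21 in FOD-CCI rats. Without SOD-CCI rat 2 or FOD-CCI rat 3, 0 passed that p in either direction. The difference of the side contrasts between the diets was called for 0 of 43 (0% of all genes), and 0 were higher at p under 0.05 (0.804% of all genes).

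The lower gene was Psmc5 (gene ID 81827), an ATPase, at -0.39 (SE 0.15, adjusted p = 0.361). Its FPKM were 203, 153 and 148 on the injured side and 402, 204 and 169 on the contralateral side of SOD-CCI rats. In FOD-CCI rats 1 to 3 the FPKM of Psmc5 were 284, 173 and 220.4 on the injured side and 307, 220.2 and 271 on the contralateral side, and rat 4, without a partner library, was at 216 on the injured side. The injured side was lower in all 3 SOD-CCI rats and in all 3 FOD-CCI rats. In sham DRG they were 349.6, 189, 179.9 and 199.9 in SOD-CT and 209, 215 and 179.6 in FOD-CT.

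Psmd5 (gene ID 296651), a chaperone of 19S base assembly, was higher on the injured side at 0.34 (SE 0.14, adjusted p = 0.394). Its FPKM were 39.5, 33.97 and 33.6 on the injured side and 45.5, 23.3 and 25.9 on the contralateral side of SOD-CCI rats. In FOD-CCI rats 1 to 3 the FPKM of Psmd5 were 23.3, 37.9 and 39.96 on the injured side and 18.6, 27.5 and 28.7 on the contralateral side, and rat 4, without a partner library, was at 36.5 on the injured side. The injured side was higher in 2 of 3 SOD-CCI rats and in all 3 FOD-CCI rats. The sham FPKM of Psmd5 were 30.3, 38.7, 28.03 and 44.02 in SOD-CT and 18.98, 33.1 and 26.2 in FOD-CT.

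Psmd11 (gene ID 303353), a lid subunit, was at 0.32 (SE 0.13, adjusted p = 0.402). Its FPKM were 41.3, 37.5 and 34.7 on the injured side and 37.5, 30.2 and 31.3 on the contralateral side of SOD-CCI rats. In FOD-CCI rats 1 to 3 the FPKM of Psmd11 were 24.6, 28.2 and 40.99 on the injured side and 15.9, 26.8 and 26.6 on the contralateral side, and rat 4, without a partner library, was at 33.1 on the injured side. The injured side was higher in all 6 rats. Sham FPKM of Psmd11 were 62.5, 29.6, 26.4 and 26.9 in SOD-CT, where replicate 1 stood apart, and 23.8, 36.8 and 27.3 in FOD-CT.

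Contralateral DRG were also set against sham DRG, which come from other rats. In SOD rats 30 of 43 genes lay below 0 (median -0.16), 3 were lower at p under 0.05 (5.98% of all genes) and 0 were called (0% of all genes). The 3 were Psma2 (-1.07, SE 0.43), the alpha ring gene Psma3 (-1.08, SE 0.46) and the ATPase gene Psmc6 (-0.97, SE 0.41), with an adjusted p of 0.6995 each. The count was 0 without SOD-CT replicate 1 or 4 or contralateral replicate 2 or 3, and 7 or 8 without SOD-CT replicate 3 or contralateral replicate 1. At the same p, 3.23% of all genes were lower without SOD-CT replicate 1. Leaving out SOD-CT replicate 1 brought the median over the 43 to 0.013, with 23 above 0. In FOD rats 32 of 43 lay above 0 (median 0.14), 0 were higher at p under 0.05 (0.907% of all genes) and 0 were called (0% of all genes). This direction turned with 1 library, since 21 of 43 lay above 0 (median -0.015) without contralateral FOD-CCI replicate 3 and 38 (median 0.27) without contralateral FOD-CCI replicate 1.

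When contralateral DRG were compared between the diets, 3 genes were higher in FOD-CCI rats at p under 0.05 (4.5% of all genes) and 0 were called (0% of all genes). The 3 genes, 6.98% of the 43, were Psmb10 (0.94, SE 0.37), Psmb9 (0.95, SE 0.44) and Psme1 (0.87, SE 0.35), with adjusted p of 0.697, 0.6995 and 0.697. The immunoproteasome gene Psmb8 and the activator gene Psme2 were not among them. Without contralateral SOD-CCI replicate 2 or 3 the count was 0, and with gene length offsets 1. Without the FOD replicate 1 libraries it was 5 (3.36% of all genes). The 7 macrophage markers were all above 0 too (median 1.52), and summed to 26.3 to 67.9 CPM in SOD-CCI and 112 to 275 CPM in FOD-CCI contralateral DRG. Their part in these values was not tested.

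The immunoproteasome and activator genes are given in every library, since macrophages are known to gather in injured ganglia. Psmb8 (gene ID 24968), which takes the place of Psmb5, had FPKM of 8.56, 10.1, 8.62 and 17.7 in SOD-CT, 10.2, 10.8 and 9.89 in SOD-CCI, 9.2, 9.85 and 12.01 in FOD-CT and 9.997, 27.9, 9.98 and 23.6 in FOD-CCI. FOD-CCI replicates 2 and 4 were the highest, and the other FOD-CCI libraries lay within the sham range. Contralateral FPKM of Psmb8 were 7.23, 9.05 and 4.22 in SOD-CCI rats and 16.6, 5.65 and 6.08 in FOD-CCI rats, highest in FOD replicate 1. The injury log2FC averaged over diets was 0.34 (SE 0.28, adjusted p = 0.68), and the side log2FC was 0.71 (SE 0.37, adjusted p = 0.508). The side value was 0.33 without FOD-CCI rat 2. FOD-CCI rat 1, whose contralateral library held spinal cord transcripts and few neuronal ones, had the lower level on the injured side. With rat 1 left out the value was 1.08 with an adjusted p of 0.0729, with a range of 0.0729 to 0.81 over all alternatives. It was then the 1 gene called of the 43 (7.64% of all genes were called).

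Psmb9 (gene ID 24967), which takes the place of Psmb6, had FPKM of 8.88, 8.61, 9.91 and 12.8 in SOD-CT, 9.75, 13.98 and 13.4 in SOD-CCI, 11.3, 4.996 and 15.3 in FOD-CT and 7.69, 20.5, 10.3 and 21.3 in FOD-CCI. The groups overlapped, with FOD-CT replicate 2 lowest and FOD-CCI replicates 2 and 4 highest. Contralateral FPKM of Psmb9 were 5.63, 8.21 and 7.83 in SOD-CCI rats and 17.3, 15.1 and 9.03 in FOD-CCI rats, all 3 FOD values above the 3 SOD values. Its injury log2FC averaged over diets was 0.42 (SE 0.30, adjusted p = 0.632), and its side log2FC 0.31 (SE 0.25, adjusted p = 0.687). For Psmb10 the averaged injury log2FC was 0.089 (SE 0.23) and the side log2FC 0.085 (SE 0.22).

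Psme1 (gene ID 29630) and Psme2 (gene ID 29614) encode the alpha and beta chains of the interferon-inducible PA28 activator. Psme1 FPKM were 95.4, 37.5, 48.3 and 61 in SOD-CT, 45.2, 44.6 and 44.9 in SOD-CCI, 56.3, 43.6 and 40.2 in FOD-CT and 50.9, 66.3, 51.1 and 57.2 in FOD-CCI. SOD-CT replicate 1 was highest, the 3 SOD-CCI values nearly coincided, and all 4 FOD-CCI values lay above them. In contralateral DRG the FPKM of Psme1 were 41.02, 37.4 and 31.7 in SOD-CCI rats and 95.5, 45.6 and 57.1 in FOD-CCI rats, highest in FOD replicate 1. Psme2 FPKM were 55.8, 38.7, 38.3 and 32.2 in SOD-CT, 43.7, 34.8 and 29.8 in SOD-CCI, 30.6, 38.2 and 41.3 in FOD-CT and 29.6, 65.5, 41.6 and 56.9 in FOD-CCI. The groups overlapped. The contralateral FPKM of Psme2 were 49.9, 29.1 and 28.2 in SOD-CCI rats and 33.8, 47.1 and 61.8 in FOD-CCI rats.

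The 7 macrophage markers lay mostly higher on the injured side. All were detected in the series, but Ptprc, Cd68 and C1qb were at 0 CPM in at least 1 library. The 7 markers summed to 51.8 to 159 CPM in SOD-CT, 163 to 241 in SOD-CCI, 63.4 to 234 in FOD-CT and 145 to 549.5 in FOD-CCI left DRG. Between the sides of SOD-CCI rats all 7 lay above 0 with a median log2FC of 2.31, and in FOD-CCI rats 6 of 7 did with a median of 0.49. T cell markers summed to at most 6.33 CPM, with Cd3e and Cd3d at a median of 0. The part of macrophages in the immunoproteasome values was not tested.

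The ratio of each immunoproteasome subunit to the subunit it replaces does not depend on the scaling of a library. As a percentage of Psmb5 FPKM, Psmb8 was at 2.05, 4.97, 4.48 and 8.14 in SOD-CT, 4.81, 6.6 and 5.85 in SOD-CCI, 5.41, 3.87 and 5.74 in FOD-CT and 3.54, 11.3, 4.09 and 9.3 in FOD-CCI. In contralateral DRG it was 2.19, 4.92 and 2.45 in SOD-CCI rats and 6.3, 2.11 and 1.76 in FOD-CCI rats. The injured side exceeded the contralateral side in 5 of 6 rats, by 1.13, 0.42 and 1.25 in SOD-CCI rats and -0.83, 2.43 and 1.21 in FOD-CCI rats on the log2 scale. The mean difference was 0.94 ± 1.08 (SD, n = 6), a 1.92-fold ratio, with an exact two-sided permutation p of 0.0938 and 0.433 after adjustment over 9 ratio tests. With 6 rats the smallest p this test can give is 0.0312. Between CCI and sham left DRG the ratio differed by 0.36 on the log2 scale (exact permutation p = 0.316, 0.474 after adjustment over 9 tests) and between FOD and SOD by 0.15 on the log2 scale (exact permutation p = 0.667, 0.667 after adjustment over 9 tests).

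Psmb9 stood at 1.23, 1.78, 2.97 and 2.35% of Psmb6 in SOD-CT, 3.16, 5.68 and 4.72% in SOD-CCI, 5.29, 1.25 and 5.47% in FOD-CT and 2.51, 5.38, 3.33 and 6.07% in FOD-CCI. The 3 SOD-CCI libraries lay above the 4 SOD-CT libraries, and the FOD groups overlapped. CCI and sham differed by 0.72 on the log2 scale (exact permutation p = 0.0963, 0.433 after adjustment over 9 tests), a 1.65-fold ratio. This difference was 0.37 without FOD-CT replicate 2 and 0.91 without FOD-CT replicate 3. The diets differed by 0.32 on the log2 scale (exact permutation p = 0.43, 0.484 after adjustment over 9 tests). Contralateral values were 1.01, 3.31 and 3.31% in SOD-CCI rats and 8.14, 3.99 and 1.91% in FOD-CCI rats. The injured side was higher in 5 of 6 rats, by a mean of 0.41 on the log2 scale (exact permutation p = 0.406, 0.484 after adjustment over 9 tests), and rat 1 of the FOD-CCI group went the other way in this ratio as in the Psmb8 ratio. Without that rat the mean was 0.83, and without SOD-CCI rat 1 it was 0.17.

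Psmb10 stood at 9.7, 17.2, 14.5 and 17.4% of Psmb7 in SOD-CT, 14.3, 16.7 and 17.7% in SOD-CCI, 17.6, 15 and 14.3% in FOD-CT and 15.6, 30, 14.6 and 22.8% in FOD-CCI. FOD-CCI replicates 2 and 4 were the highest, as for Psmb8. CCI and sham differed by 0.26 on the log2 scale (exact permutation p = 0.196, 0.474 after adjustment over 9 tests) and the diets by 0.21 on the log2 scale (exact permutation p = 0.3, 0.474 after adjustment over 9 tests). On the contralateral side the values were 12.1, 9.57 and 12.5% in SOD-CCI rats and 23.3, 18.5 and 15.2% in FOD-CCI rats. The injured side was higher in 4 of 6 rats, by a mean of 0.27 on the log2 scale (exact permutation p = 0.25, 0.474 after adjustment over 9 tests). None of the 9 ratio tests passed an adjusted p of 0.1.

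**Figure D5:**
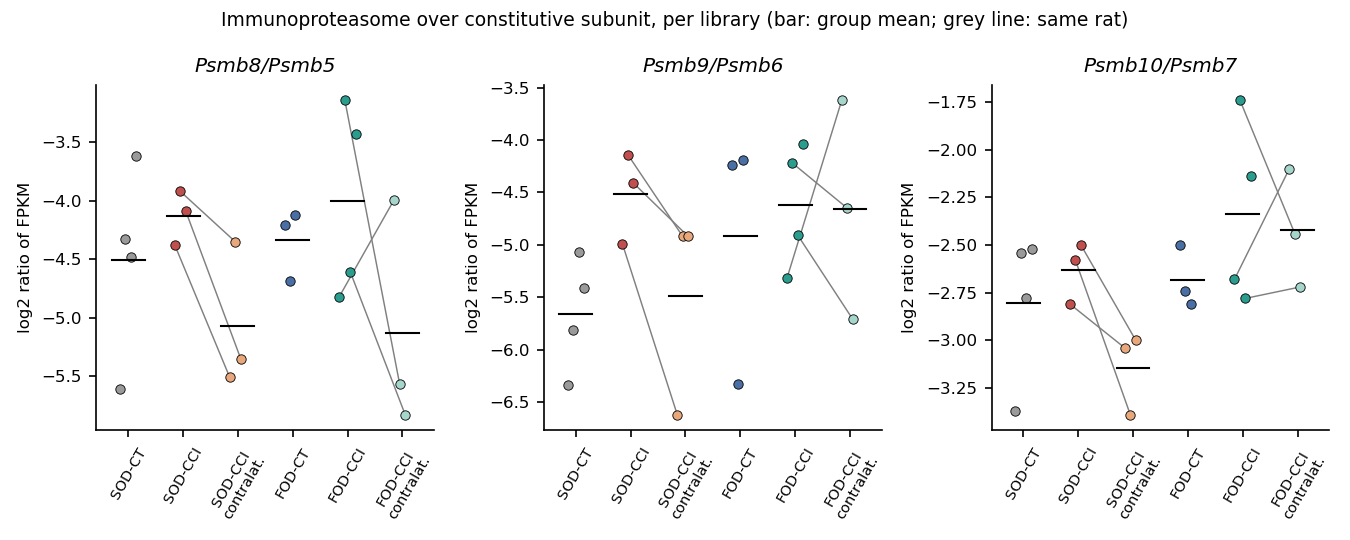
log2 ratio of FPKM of each immunoproteasome subunit over the constitutive subunit it replaces, per library and group, with bars at group means and grey lines joining the sides of the same rat. The ratio Psmb8 to Psmb5 is higher on the injured side in 5 of 6 rats, and the 3 SOD-CCI values of Psmb9 to Psmb6 lie above the 4 SOD-CT values.

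Other genes of the pathway were read from lists of assembly factors, proteasome-associated and shuttle proteins, ubiquitin genes, factors of transcriptional control and substrate delivery, and antigen processing. Of their 42 genes, 39 were tested in the comparisons of left DRG and of sides, 38 in those of contralateral with sham or contralateral DRG, and 0 were called in any of the 14 comparisons, in which 0% to 0.962% of all genes were called. Among the 4 ubiquitin genes, Rps27a, which encodes ubiquitin fused to a ribosomal protein, had a log2FC of 1.87 (SE 0.62, adjusted p = 0.859) for diet after CCI and -1.37 (SE 0.60, adjusted p = 0.341) for SOD injury. Its reads may be shared with processed copies, so this value is uncertain. The 6 tested assembly factors had medians of -0.21 for SOD injury and 0.23 for diet after CCI, the same sides of 0 as the core rings.

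The 12 tested associated and shuttle genes had medians of -0.094 and 0.11 in these comparisons. Zfand2a, a stress-inducible proteasome-binding protein, lay highest of them on the injured side, at 0.72 (SE 0.16, adjusted p = 0.122). The 6 genes of control and delivery, which include Nfe2l1 and Vcp, had medians of -0.040 for SOD injury and -0.22 for diet after CCI. Of the 11 antigen processing genes, Irf8, a myeloid transcription factor, was at 1.67 (SE 0.56, adjusted p = 0.296) on the injured side, Irf1, an interferon response factor, at 0.68 (SE 0.24, adjusted p = 0.326), and Tap1, a peptide transporter next to Psmb9 in the genome, at 0.46 (SE 0.19, adjusted p = 0.396). The list as a whole had a median of 0.15 for side and 0.21 for SOD injury.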

How the data were processed

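Poly-A RNA libraries of 20 dorsal root ganglia were sequenced by the authors. According to their methods and processing notes, reads were trimmed with fastp, aligned with HISAT2 and assigned to genes with featureCounts 1.5.0-p3, which gave the deposited fragment counts per gene, and the authors computed the deposited FPKM from these counts. The genome build, the annotation and the strand setting are not given in the sources used here, so reads of overlapping or antisense genes cannot be told apart. Groups came from the sample labels.

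Counts were tested with edgeR 4.0.16 (quasi-likelihood test, TMM, two-sided) in R 4.3.3. Genes entered a fit if 90% or more of its libraries had 10 or more counts. Calls needed an adjusted p no higher than 0.1 (Benjamini-Hochberg, over all genes tested) together with a change of 1.2-fold or more. One fit held the 14 left libraries (14484 genes), another the 12 libraries of the 6 rats with both sides, with rat as a block (14549 genes), and the last the 13 sham and contralateral libraries (14007 genes). Ratios of FPKM were tested by exact permutation. Rats are the replicates, and p-values measure only the spread between these animals. Scripts were tested on simulated data.

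The members and lists were chosen with earlier results of these data known. Values in every library are given for Psmb4, the active, immunoproteasome, Psme1, Psme2 and Psme4 genes, and the 3 members with the smallest p for averaged injury, diet after CCI and side. Psma3, Psma6 and Psmc6 were named after their values were seen.

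The replicate numbers pair the sides, since both DRG come from the same rat, and the deviations of same-numbered libraries from their group means correlated at 0.142 to 0.43 in SOD-CCI and at 0.113 to 0.361 in FOD-CCI rats. Same-numbered libraries also correlated at 0.191 to 0.429 between FOD-CT and FOD-CCI and at 0.184 to 0.57 between FOD-CT and contralateral FOD-CCI, which are different rats, and the replicate block changed no call there. Alternatives were the DESeq2 1.42.0 Wald test, RLE size factors, no filter on low counts, gene length offsets, a replicate block, only the groups compared, leaving out each library or rat, and for ratios a pseudocount of 0.5 FPKM or no strata. Fits without the FOD replicate 1 libraries, fits also without SOD-CT replicate 1, and DESeq2 without SOD-CT replicate 1, were added after seeing the data.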

Additional observations from a re-analysis of the deposited data

Results flagged for a closer look

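Within each left group of 4, 48 combinations of a group with a named gene or a subunit ratio were examined for a library whose gap to the nearest other value was most of the group's range (Dixon's 95% critical value), and chance flags about 1 in 20. SOD-CT replicate 1, with high muscle transcripts, stood above the other SOD-CT libraries for 3 genes. Its FPKM divisor of 14312100 was below its total of 22792829 counts, which raises every FPKM of this library. Psmb5, the chymotrypsin-like subunit, was at 418.2 FPKM there against 192.5 to 217.9 FPKM in the other libraries. Psmc5, an ATPase, was at 349.6 FPKM against 179.9 to 199.9 FPKM, and Psmd11, a lid subunit, at 62.45 FPKM against 26.45 to 29.61 FPKM. The SOD injury comparison is given without this library in the text above.

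FOD-CCI replicate 2 stood above the other FOD-CCI libraries for Psma6, an alpha ring subunit, at 479.4 FPKM against 233.4 to 265.8 FPKM, and for Psmb7, the trypsin-like subunit, at 341.9 FPKM against 268.3 to 274.4 FPKM. In SOD-CT replicate 4 the immunoproteasome gene Psmb8 was at 17.73 FPKM, against 8.557 to 10.06 FPKM in the other SOD-CT libraries. The part of the library in these values was not tested.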

How the results depend on the processing

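By edgeR's quasi-likelihood test 0 proteasome genes were called with all libraries in any of the 14 comparisons, and this also held with RLE size factors, no filter on low counts, gene length offsets and the replicate block. The DESeq2 Wald test called 5 for SOD injury and 1 for the interaction, and without SOD-CT replicate 1 it called 1 for diet after CCI. Leaving out each rat gave 0 to 1 for side, the 1 being Psmb8 without FOD-CCI rat 1. Among the 43 named differences, 323 of 330 values under other settings kept their direction and their side of the threshold, and the other 7 passed it. Leaving out 1 library or rat, 527 of 532 did, 1 passed the threshold and 4 changed sign, all for Psmb10, which ran from -0.085 to 0.18 for averaged injury and from -0.090 to 0.28 for side. The Psmb8 to Psmb5 ratio between diets ran from -0.033, without SOD-CT replicate 1, to 0.30 on the log2 scale. Its CCI difference from sham was 0.18 without SOD-CT replicate 1, and that of Psmb10 to Psmb7 was 0.16 without FOD-CCI replicate 2. The cause was not tested. With gene length offsets 7 genes were lower at p under 0.05 for SOD injury (11 in the text), 2 higher for diet after CCI (4) and 5 higher for the interaction (9). With the replicate block, where the numbers mark no shared rat, these counts were 8, 3 and 4, those for averaged injury (3) and the averaged diet (1 lower) were 0, and 37 of 43 lay above 0 for FOD injury (36). With only the groups compared, 10 were higher for diet after CCI. Without SOD-CT replicate 1 and the FOD replicate 1 libraries, 12 were higher for diet after CCI, 5 for the interaction and 9 for diet contralateral (3), and 35 of 43 lay above 0 for the averaged diet (24). FOD-CT replicate 2, with 18469 CPM of muscle markers, stayed in these fits. The share of all genes at p under 0.05 was not computed for them. It was also not computed with length offsets, with the replicate block or with only the groups compared. These counts therefore have no background to be read against. For diet after CCI, 3.87% of all genes were higher with all libraries and 6.62% without SOD-CT replicate 1 alone. Groups of 3 or 4 rats limit the precision of every comparison.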
